A study of Mus musculus with 8 samples.

Results

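Carbonic anhydrases convert carbon dioxide and water into bicarbonate and a proton, and in the kidney this reaction feeds acid secretion and bicarbonate recovery along the nephron. The 9 genes described here, Car2, Car3, Car4, Car5b, Car8, Car12, Car13, Car14 and Car15, were taken by symbol from the 46517 genes counted in whole mouse kidneys. All 9 were found, and 8 had enough reads to be tested; Car15 did not. Transcripts of the transmembrane enzymes Car12 and Car14 fell in kidneys whose tubules had been targeted for loss of Xpr1, that of the cytosolic enzyme Car13 rose, and those of Car2, Car3, Car4, Car5b and Car8 did not pass the test.

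The kidneys came from 4 Control mice, named C10, C11, C13 and C14, and from 4 conditional knockout (cKO) mice, named KO16, KO18, KO19 and KO20, with 1 library of messenger RNA per mouse. Both groups were Xpr1lox/lox, with exon 2 of the phosphate exporter gene Xpr1 floxed, ate the same standard chow, and drank doxycycline at 2 mg/ml for 2 weeks from the age of 8 weeks. In addition the cKO mice had 2 transgenes, Pax8-rtTA, whose product is made in tubule cells and is switched on by doxycycline, and LC-1, from which rtTA drives Cre recombinase; Control mice were littermates not listed as carrying either. Cre, rtTA and the loss of Xpr1 therefore cannot be told apart, and the sex of the mice is not given in the sources used here.

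The reaction runs on both sides of the plasma membrane. In the proximal tubule, enzymes facing the lumen or the interstitium (Car4, held by a lipid anchor, and Car14 and Car12, which span the membrane) work beside the cytosolic enzyme Car2, and bicarbonate leaves the cell with sodium through the product of Slc4a4. In the collecting duct, Car2 of intercalated cells supplies the proton pump. Car5b is mitochondrial, Car13 and Car3 are cytosolic, and Car8 is a family member without catalytic activity.

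Reads assigned to genes ran from 20366113 to 26155030 per library. Values are CPM, read counts per library scaled to a common total and adjusted by the trimmed mean of M values (TMM), and a gene was called where its adjusted p was under 0.05 in edgeR's quasi-likelihood test over all genes tested. Xpr1 stood at 80.2 to 126 CPM in the Control and 5.74 to 26.5 CPM in the cKO libraries, so no library went against its label; the count covers the whole gene and does not show in how many cells exon 2 was lost. Of 15382 genes tested 14.1% were called, 7.5% higher and 6.61% lower in cKO kidneys. Scaling by library totals alone raised the median over all genes from a log2 fold change of 0.0066 to 0.34 and the higher share of the calls from 53.2% to 81.2%, and upper-quartile scaling raised them to 0.14 and 63.9%. KO16 and KO20 leaned to short transcripts: on the log2 scale the shortest sixth of their genes exceeded the Control mean by 0.95 and 0.49, against -0.36 to 0.24 in the other libraries, and C11 leaned most to long transcripts (-0.36).

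Among the members 1 was called higher and 2 lower, which is 3 of the 8 tested beside a background of 14.1%. The median log2 fold change of the 8 was 0.093, beside 0.0066 for all genes tested, so the members had no common direction. Their median absolute log2 fold change was 0.75, beside 0.42 for all genes tested. For 3 of the 9 members, Car12, Car13 and Car14, no cKO library fell within the Control range or the reverse; among all genes tested this share was 22.8%. Over the 18 alternative settings the share of all genes called ran from 7.02% to 57.8%.

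Levels of different members are compared in RPKM, the scaled CPM per kilobase of exon. In Control kidneys Car2 was the most abundant at 186 ± 29.1 RPKM (SD, n = 4), followed by Car4 at 99.6 ± 25.6 RPKM, and their ranges did not overlap (150 to 220 and 65.1 to 126 RPKM). Car14 at 39.5 ± 8.69 RPKM and Car12 at 30.8 ± 13.1 RPKM came next, and their ranges overlapped (31.7 to 50.9 and 23.2 to 50.5 RPKM). Car5b reached 12.4 ± 2.19 RPKM and Car3 7.79 ± 2.34 RPKM, which also overlapped. Car8 at 3.11 ± 1.07 RPKM and Car13 at 1.59 ± 0.231 RPKM were low and overlapped, and Car15 was barely detected at 0.05 ± 0.0383 RPKM.

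In cKO kidneys Car2 stayed first at 284 ± 106 RPKM and Car4 second at 53.9 ± 45.7 RPKM, with ranges that did not overlap (202 to 431 and 29.5 to 123 RPKM). Below them the order differed. Car5b (11.4 ± 0.749 RPKM), Car3 (11.3 ± 8.40 RPKM), Car12 (8.44 ± 3.38 RPKM), Car13 (5.39 ± 2.74 RPKM), Car14 (4.72 ± 1.83 RPKM) and Car8 (3.85 ± 0.887 RPKM) lay close together, and each overlapped the next in this order. Car14 thus ranked 3 of 9 in Control kidneys and 7 of 9 in cKO kidneys.

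**Figure D1:**
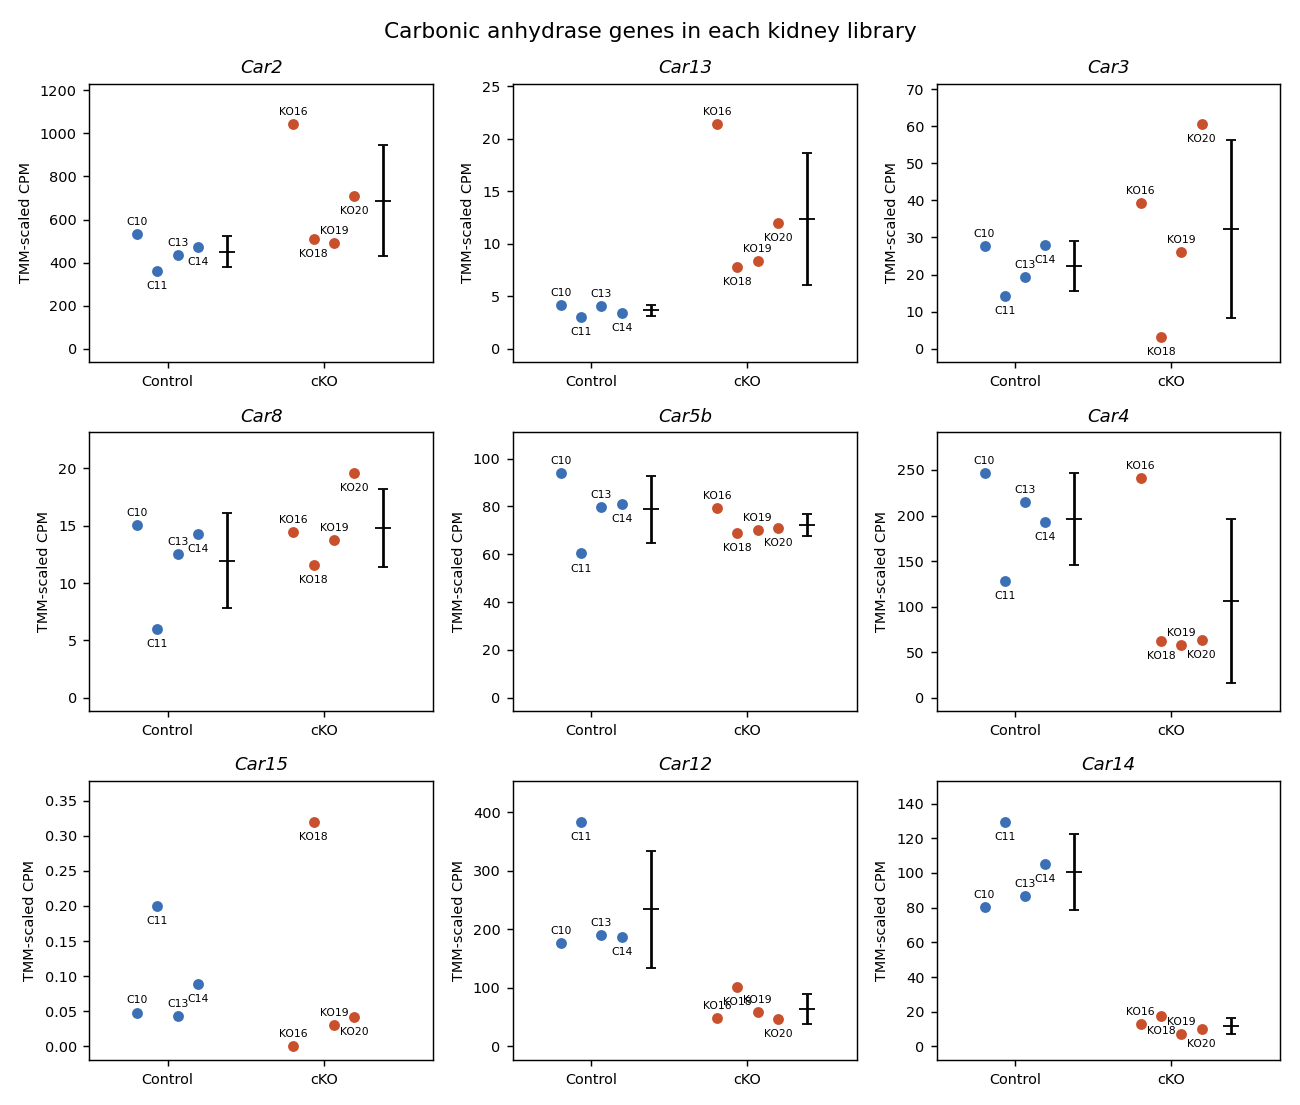
TMM-scaled CPM of the 9 carbonic anhydrase genes, a panel each with its own linear axis; points are libraries (blue Control, orange cKO) and bars are mean ± SD over 4 mice, left out for the barely detected Car15. Car14, Car12 and Car13 have groups that do not overlap, and for Car4 the library KO16 (241 CPM) lies among the Control libraries.

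Car14 and Car12 encode enzymes that cross the plasma membrane once and hold their active site outside the cell. Both fell. The 100 bases before the RefSeq start of each (GRCm38.p6), where RefSeq promoters were given for 5 of the 9 members, are shown for this pair because they were the members that fell together. Capitals mark ACGTG, the core of the sequence bound by hypoxia-inducible factors, on either strand.
Car14: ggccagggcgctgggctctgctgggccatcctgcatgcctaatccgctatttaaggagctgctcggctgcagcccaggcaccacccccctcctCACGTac
Car12: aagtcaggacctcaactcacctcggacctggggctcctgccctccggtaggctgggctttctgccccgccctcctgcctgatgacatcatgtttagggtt

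The Car14 stretch is chr3:95904686-95904785 on the minus strand and the Car12 stretch chr9:66713586-66713685 on the plus strand. In Car14 the match begins 7 bases before the RefSeq start, on the reverse strand, and Car12 has none. The Car14 position given below comes from GENCODE, another annotation, and starts at 95904691, inside the match. GTTAAT, part of the site of the proximal tubule factor HNF1, was found in neither stretch on either strand. Of 32851 promoters in the table, 8.09% hold ACGTG in the same 100 bases and 2.51% hold GTTAAT; a match describes the letters and is not a measured site.

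Car14 (ENSMUSG00000038526, GRCm38 chromosome 3, 95897768 to 95904691, minus strand) is a proximal tubule enzyme of the brush border and basolateral membrane. It stood at 80.5, 130, 86.4 and 105 CPM in C10, C11, C13 and C14, and at 13.2, 17.8, 6.88 and 10.1 CPM in KO16, KO18, KO19 and KO20. Every cKO library lay below every Control library. The log2 fold change was -3.07 (SE 0.33, adjusted p = 0.000755). It was called in each of 18 alternative settings, with values from -3.33 to -2.76. At its 3' end 445 of its 2543 exonic bases overlap Aph1a on the opposite strand, a gamma-secretase subunit gene that stood at 19.7 ± 2.82 and 14.8 ± 1.12 CPM (adjusted p = 0.206). Whether counting used strand is not given in the sources used here, and most exonic bases of Car14 lie outside the overlap.

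Car12 (ENSMUSG00000032373, chromosome 9, 66713686 to 66766845, plus strand) encodes a transmembrane enzyme known from basolateral membranes of tubule cells. Its Control libraries held 176 (C10), 384 (C11), 191 (C13) and 186 (C14) CPM, and its cKO libraries 49.2 (KO16), 102 (KO18), 59.4 (KO19) and 46.1 (KO20) CPM. C11 stood apart from the other Control libraries, and the groups did not overlap with or without it. The log2 fold change was -1.87 (SE 0.36, adjusted p = 0.00954), and -1.53 without C11 (adjusted p = 0.0154).

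With 7597 exonic bases Car12 is the longest of the members, and its values ran with the length lean of the libraries in part: C11, which leaned most to long transcripts, was highest, and KO16 and KO20, which leaned to short ones, were lowest. For Car5b, the next longest at 6354 bases, C11 was lowest of the Control libraries (60.3 CPM) and KO16 highest of the cKO libraries (79.3 CPM). The part of the length lean in the Car12 values was not tested beyond the fits below. With the length slope of each library as a covariate the value was -1.65 (adjusted p = 0.00119; 33.2% of all genes were called in that fit). Leaving out KO16 and KO20 gave -1.54 (adjusted p = 0.0491; 16.6% of all genes), and leaving out C11 as well gave -1.23 (adjusted p = 0.000483; 57.8% of all genes).

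Within a library, the ratio of Car12 to Car14 does not depend on scaling, but it can carry the length lean. Car12 has 7597 exonic bases and Car14 2543. On the log2 scale the ratio was highest of the Control libraries in C11 (1.57) and lowest of the cKO libraries in KO16 (1.89) and KO20 (2.18). Its log2 value (CPM, prior count 2) was 1.16 ± 0.306 in Control and 2.42 ± 0.516 in cKO libraries (SD, n = 4), so Car14 fell by more than Car12 (difference 1.26, exact two-sided permutation p = 0.0286, the smallest that 70 splits can give; 0.0286 adjusted over 3 ratios). All 4 cKO libraries lay above all 4 Control libraries. The members in all 3 ratios were chosen with earlier results of these data known. Their permutation p-values describe how the libraries separate and are not independent evidence.

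Car4 (ENSMUSG00000000805, chromosome 11, 84957786 to 84966044, plus strand) encodes the lipid-anchored enzyme of the brush border and of some endothelia. It stood at 247, 128, 215 and 193 CPM in C10, C11, C13 and C14, and at 241, 62.4, 58.1 and 62.9 CPM in KO16, KO18, KO19 and KO20. The cKO libraries KO18, KO19 and KO20 lay close together below every Control library, and KO16 lay near the top of the Control range. The gene was not called over all 8 libraries (log2 fold change -0.89, SE 0.49, adjusted p = 0.287). Without KO16 it was called lower, at -1.68 (adjusted p = 0.00334), where 17.2% of all genes were called. It was also lower without both KO16 and KO20 (-1.71, adjusted p = 0.0101), without C11 as well (-1.90, adjusted p = 3.32e-06) and with the length slope as a covariate (-1.41, adjusted p = 0.00336). In this order the settings called 16.6%, 57.8% and 33.2% of all genes. Car4 has 1966 exonic bases, against a median of 4152 for tested genes. The part of the length lean and of KO16 in this value was not tested further.

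The ratio of Car4 to Car14 rose from 0.95 ± 0.711 to 2.92 ± 0.991 on the log2 scale (difference 1.97, exact two-sided permutation p = 0.0286, the smallest possible; 0.0286 adjusted over 3 ratios). KO16 was highest at 4.18 and KO18 lowest of the cKO libraries at 1.80, still above the highest Control library, C10 (1.61). Car14 thus was lower relative to Car4 in the cKO libraries, whatever the scaling.

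Car15 (ENSMUSG00000090236, chromosome 16, 17835276 to 17838364, minus strand) encodes the other lipid-anchored enzyme. It had 1, 5, 1 and 2 reads in the Control and 0, 10, 1 and 1 reads in the cKO libraries and was not tested. On the same strand 1253 of its 1906 exonic bases also belong to Gm20518, which had 26 to 72 reads. Reads in shared sequence may have been left out of both counts, so these values may understate Car15.

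Car2 and its neighbours form a cluster on the plus strand of chromosome 3 (GRCm38): Car13 at 14641727 to 14663002, Car3 at 14863512 to 14872523 and Car2 at 14886273 to 14900770, with Car1 between Car13 and Car3 on the minus strand. Of these 4 neighbours Car13 rose, Car2 and Car3 did not pass, and Car1, an enzyme of red blood cells, had 8 reads over the Control and 2 over the cKO libraries and was not tested.

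Car13 (ENSMUSG00000027555) encodes a cytosolic enzyme found in many epithelia. It stood at 4.15, 3.05, 4.04 and 3.37 CPM in C10, C11, C13 and C14, and at 21.4, 7.77, 8.36 and 12 CPM in KO16, KO18, KO19 and KO20. Every cKO library lay above every Control library, and KO16 was the highest. The log2 fold change was 1.76 (SE 0.35, adjusted p = 0.0107), and the gene was called in each of 18 alternative settings. The size was lower without KO16 (1.36, adjusted p = 0.00634), without KO16 and KO20 (1.14, adjusted p = 0.0116) and without KO16, KO20 and C11 (1.03, adjusted p = 0.000439). In this order the settings called 17.2%, 16.6% and 57.8% of all genes. The Car13 counts were small, at 76 to 93 reads per Control library and 243 to 403 per cKO library.

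Car2 (ENSMUSG00000027562) encodes the abundant, fast cytosolic enzyme. It stood at 532, 363, 437 and 471 CPM in the Control libraries C10, C11, C13 and C14, and at 1043, 508, 490 and 710 CPM in KO16, KO18, KO19 and KO20. KO18 and KO19 lay below C10, so the groups overlapped, and only KO16 and KO20 lay above the Control range. The log2 fold change was 0.61 (SE 0.29, adjusted p = 0.210). It was 0.14 without KO16 and KO20 (adjusted p = 0.641) and 0.018 without C11 as well (adjusted p = 0.904). The gene was called higher in 2 of 18 alternative settings, library totals alone (0.89, adjusted p = 0.0174), which raise all genes and called 19% of them, and the length slope as a covariate (0.36, adjusted p = 0.0226). With that covariate 33.2% of all genes were called.

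Red blood cells are rich in Car2. Globin and other red cell markers (6 genes, of which 5 were tested and 0 called; Hba-a2 had the smallest p, adjusted p = 0.544) summed to 192 to 300 CPM in the Control libraries. In cKO libraries they summed to 703 (KO16), 101 (KO18), 111 (KO19) and 216 (KO20) CPM. KO16 was high in these markers and in Car2. KO20 had Car2 above the Control range (710 CPM) and markers inside it. KO18 and KO19 had markers below the Control range and Car2 (508 and 490 CPM) inside it. The part of red blood cells in the Car2 values was not tested.

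The ratio of Car13 to Car2 was -6.91 ± 0.157 in Control and -5.84 ± 0.173 in cKO libraries on the log2 scale (difference 1.08, exact two-sided permutation p = 0.0286, the smallest possible; 0.0286 adjusted over 3 ratios). The range was -7.09 to -6.73 in Control and -6.01 to -5.60 in cKO libraries. The ratio varied less within each group than either gene did: KO16 was high for both.

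Car3 (ENSMUSG00000027559) encodes a cytosolic enzyme abundant in skeletal muscle and fat. It ranged from 14.3 to 27.9 CPM in the Control libraries and stood at 39.4, 3.14, 26.1 and 60.6 CPM in KO16, KO18, KO19 and KO20. The cKO libraries thus lay both above and below all Control libraries, and the log2 fold change of 0.53 (SE 0.67, adjusted p = 0.667) has no settled sign: it was -0.62 without KO16 and KO20.

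Adipocyte markers (6 genes, of which 5 were tested and 0 called; Cfd had the smallest p, adjusted p = 0.0724) summed to 44.7 to 183 CPM in the Control libraries. In the cKO libraries they summed to 611 (KO16), 69.5 (KO18), 140 (KO19) and 471 (KO20) CPM. Fabp4 made up most of these sums (496 CPM in KO16 and 355 CPM in KO20). The cKO libraries with the most Car3 were those with the highest adipocyte sums, and KO18 was lowest for both. Among Control libraries C11 was lowest for both. KO16 and KO20 were also the libraries that leaned to short transcripts. Lep had 0 reads in C10 and C13 and stood at 0.0623 and 0.156 CPM on average in Control and cKO libraries. Within the cKO group Lep ran the other way, at 0.053 (KO16), 0.042 (KO20), 0.29 (KO18) and 0.24 (KO19) CPM. Skeletal muscle markers (6 genes, 2 tested) summed to 1.06 to 1.52 and 2.56 to 10.5 CPM; Acta1 was called higher (5.26, adjusted p = 0.00751), and the defining genes Ckm, Myh1 and Myh4 were at or under 0.0344 CPM on average in both groups. The part of either tissue in Car3 was not tested.

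Car8 (ENSMUSG00000041261, chromosome 4, 8143362 to 8239041, minus strand), which binds the inositol trisphosphate receptor, stood at 5.98 to 15 CPM in Control and 11.5 to 19.6 CPM in cKO libraries. C11 was lowest and KO20 highest, and the groups overlapped (log2 fold change 0.31, SE 0.31, adjusted p = 0.585). Car5b (ENSMUSG00000031373, X chromosome, 163976822 to 164027997, minus strand), which supplies bicarbonate to mitochondrial carboxylation, stood at 60.3 to 94.1 CPM in Control and 68.8 to 79.3 CPM in cKO libraries. All 4 cKO libraries lay inside the Control range, and the log2 fold change was -0.12 (SE 0.19, adjusted p = 0.742). Without KO16, KO20 and C11, a setting that called 9175 genes, it was -0.33 (adjusted p = 0.0283).

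**Figure D2:**
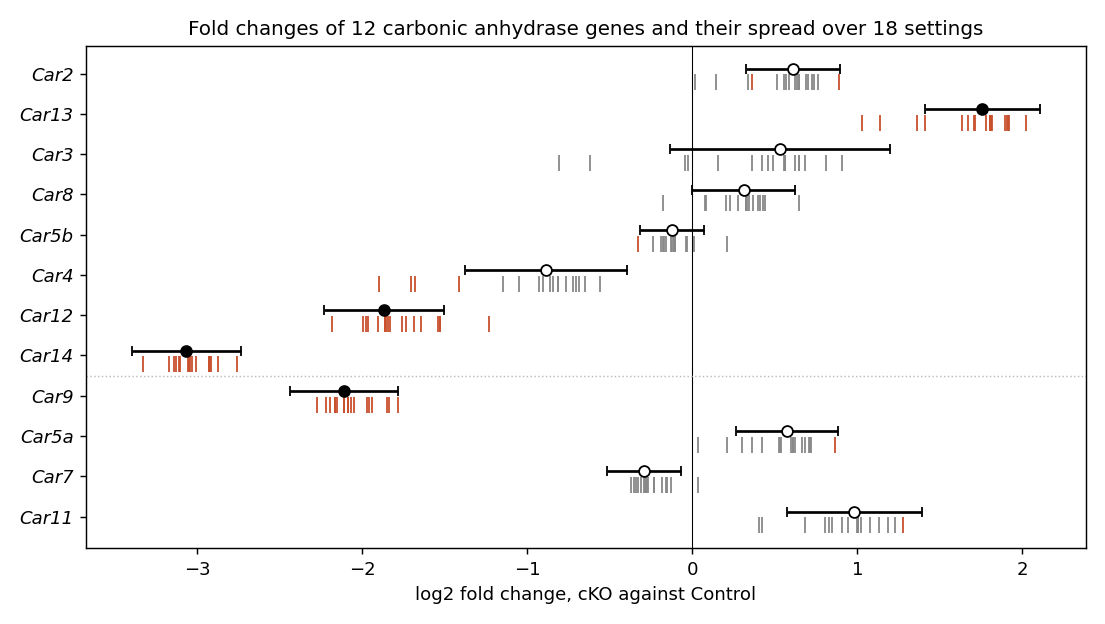
log2 fold changes (cKO against Control) of the 8 tested members, above the dotted line, and of the other 4 tested family genes; circles are values over all 8 libraries ± SE, filled where adjusted p was under 0.05, and ticks are the 18 alternative settings, orange where called. Car13, Car12, Car14 and Car9 are called in every setting shown, and the ticks of Car3 spread from -0.81 to 0.91.

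Summed by the place of the protein, the mix of carbonic anhydrase transcripts differed between the groups. All 9 members together came to 381 ± 39.7 RPKM in Control and 383 ± 155 RPKM in cKO libraries. The similar means hide a wide spread. Control libraries ran from 334 to 430 RPKM. KO16 lay above them (604 RPKM), KO18 and KO19 below (280 and 270 RPKM) and KO20 inside (378 RPKM). The transmembrane pair summed to 70.3 ± 21.2 RPKM in Control and 13.2 ± 4.86 RPKM in cKO libraries, and each cKO library (10.1 to 20.4 RPKM) lay below each Control library (54.9 to 101 RPKM). The lipid-anchored pair, nearly all Car4, summed to 99.7 ± 25.5 and 54.0 ± 45.7 RPKM, and the cytosolic members, mostly Car2, to 199 ± 32.4 and 304 ± 114 RPKM. Cytosolic sums ran from 158 to 235 RPKM in Control libraries. KO16 (458 RPKM) and KO20 (325 RPKM) lay above that range, and KO18 (217 RPKM) and KO19 (219 RPKM) inside it. As a share of the total, cytosolic members made up 51.9 ± 3.39% in Control and 80.0 ± 4.49% in cKO libraries, and membrane members 44.9 ± 3.63% and 16.7 ± 4.78%. Car2 alone made up 48.6 ± 2.75% and 74.7 ± 2.58%, and Car14 10.6 ± 3.39% and 1.35 ± 0.767%. These sums are over members chosen with earlier results known and were not tested. They describe RNA; protein was not measured.

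**Figure D3:**
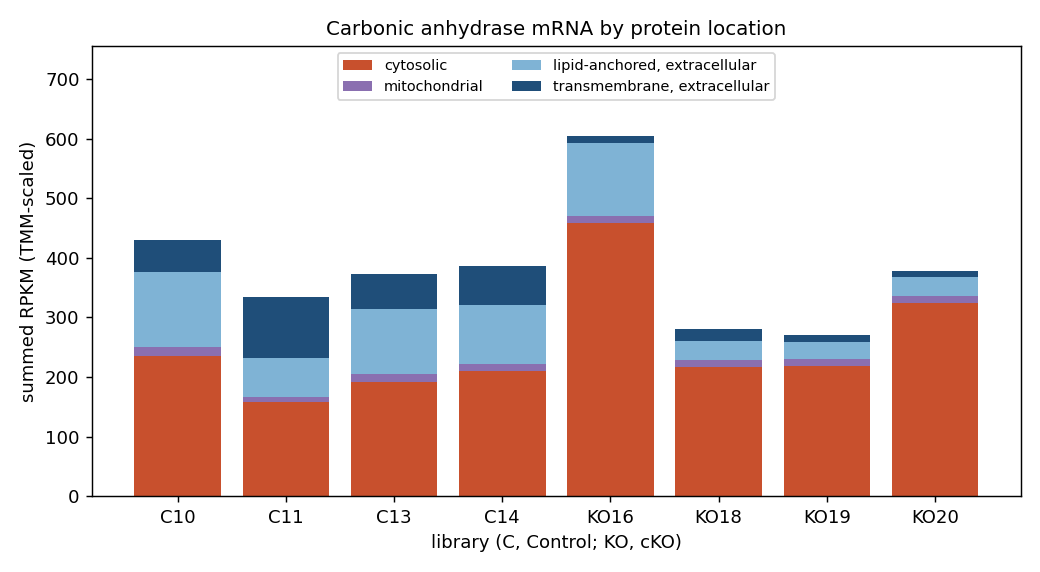
Summed RPKM of the 9 members in each library, stacked by where the protein works; bars start at 0. The transmembrane part is 54.9 to 101 RPKM in the Control and 10.1 to 20.4 RPKM in the cKO libraries, and KO16 has the tallest bar.

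Of the 7 other family genes Car9 fell, and Car5a, Car7 and Car11 were tested without a call. Car9, a transmembrane enzyme and a textbook target of hypoxia-inducible factors, stood at 10.1, 22.8, 13.9 and 13.9 CPM in C10, C11, C13 and C14, and at 2.28, 3.01, 4.24 and 4.47 CPM in KO16, KO18, KO19 and KO20. The groups did not overlap, and the log2 fold change was -2.11 (SE 0.33, adjusted p = 0.00352). The Car9 promoter holds ACGTG on the reverse strand, 18 bases before the start. Of the 5 members with promoters given, Car14 had a match. Car12, which fell, and Car4, Car5b and Car15, which were not called or not tested, had none. The promoters of Car5a, Car7 and Car11 are not reported here, and whether a match goes with a fall was not tested. On the opposite strand 214 of the 2304 exonic bases of Car9 overlap Gm12454.

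Car5a, the other mitochondrial enzyme, stood at 3.48 ± 0.892 and 5.20 ± 1.85 CPM (log2 fold change 0.57, adjusted p = 0.270), Car7, cytosolic, at 3.15 ± 0.597 and 2.57 ± 0.187 CPM (-0.29, adjusted p = 0.459), and Car11, a member without catalytic activity, at 1.77 ± 0.669 and 3.51 ± 1.75 CPM (0.98, adjusted p = 0.155). With library totals alone Car5a and Car11 were called higher (adjusted p = 0.0474 and 0.0461). Car6, the secreted enzyme, had 2 reads in each group, and Car10 had 0 reads in the Control and 1 in the cKO libraries; neither was tested.

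Markers of the proximal tubule segments moved with Car14 and Car12. Of 6 S1 markers 5 fell (Slc5a2, Slc5a12, Gatm, Slc6a19 and Slc7a7; list median -2.02), of 5 S2 markers 5 fell (Slc22a6, Slc22a8, Slco1a1, Slc13a3 and Fbp1; median -2.54), and of 6 S3 markers 3 fell (Slc7a13, Acy3 and Slc3a1; median -1.21), beside a background of 6.61% called lower and a median of 0.0066 for all genes. Summed S1 markers ran from 1966 to 2739 CPM in Control and 405 to 823 CPM in cKO libraries, S2 markers from 3576 to 4238 and 528 to 1230 CPM, and S3 markers from 4861 to 6954 and 1035 to 2119 CPM. Calls were lost for Slc5a2 without KO19 (adjusted p = 0.056), KO20 (0.0772), KO16 and KO20 together (0.0821) or with library totals alone (0.0629). Those of Fbp1 and Slc3a1 were lost without C13 (0.0588 and 0.0623), C14 (0.0537 and 0.0519) or KO20 (0.105 and 0.08). The part of these markers in the values of Car14 and Car12 was not tested. In whole kidney RNA, fewer cells of a type and less RNA per cell cannot be told apart.

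Of 25 markers of later segments 2 were called, beside a background of 14.1%. None of 6 markers of the thick ascending limb (median 0.021; smallest p for Egf, adjusted p = 0.143), 6 of the distal convoluted and connecting tubule (median 0.0059; Trpv5, adjusted p = 0.227) and 7 of intercalated cells (median -0.03; Slc4a1, adjusted p = 0.132) passed edgeR's test. Intercalated cell markers summed to 245 to 421 CPM in Control and 279 to 364 CPM in cKO libraries. Among 6 principal cell markers (median 0.10) the water channel gene Aqp2 rose (1.10, adjusted p = 0.0117) and Aqp3 fell (-1.03, adjusted p = 0.0231). The call of Aqp2 was lost without C13 (adjusted p = 0.0527), and that of Aqp3 without C13 (0.0594), C14 (0.053), KO19 (0.0634) or KO20 (0.0901), without KO16 and KO20 together (0.0633) and with library totals alone (0.110). Markers of endothelium (7 genes; median -0.47; Kdr, adjusted p = 0.0717) and urothelium (5 genes; median 0.89; Upk1a, adjusted p = 0.203) had no member called. The 5 podocyte markers, also without a call, summed to 142 to 370 CPM in Control and 83.1 to 185 CPM in cKO libraries. Endothelial markers, which bear on Car4, summed to 334 to 489 CPM in Control and 266 to 333 CPM in cKO libraries.

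Macrophage and injury markers were higher in cKO libraries. Of 6 macrophage markers Cd68, Adgre1, C1qa and C1qb rose (median 1.76), with sums of 91.7 to 110 CPM in Control and 178 to 402 CPM in cKO libraries, and all 5 tested of 6 injury markers rose (Havcr1, Lcn2, Krt20, Vcam1 and Spp1; median 4.10; sums of 684 to 820 and 3182 to 4495 CPM), beside 7.5% of all genes called higher. The call of Cd68 was lost without C13 (adjusted p = 0.0573) or C14 (0.0528), and that of Krt20 without C10, C13, C14, KO16 or KO20 (0.0545 without KO16 to 0.0951 without C14) and without KO16 and KO20 together (0.0823). KO16, the library with the most Car13, Car2 and, among cKO libraries, Car4, also had the highest sums of both marker lists. The macrophage markers did not all follow. In KO16 Ptprc was lowest of all libraries (11.3 CPM), and Csf1r (51.1 CPM) lay below KO18 (60.9 CPM) and KO19 (73.5 CPM). KO16 was also the library that leaned most to short transcripts. The part of these markers in the carbonic anhydrase values was not tested.

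**Figure D4:**
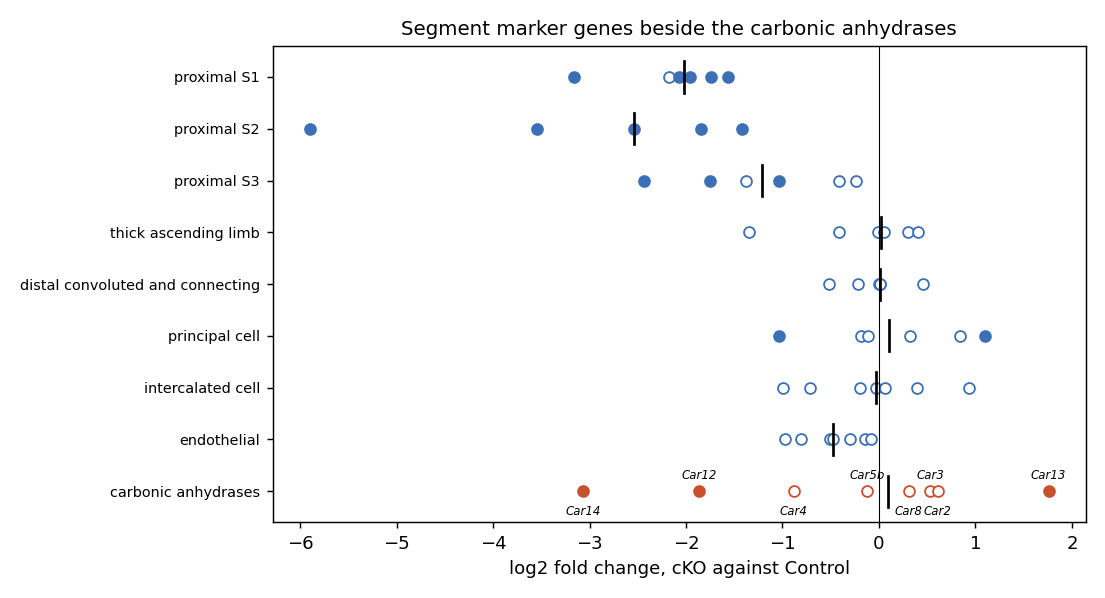
log2 fold changes (cKO against Control) of tested marker genes of 8 cell types and, in the bottom row, of the 8 tested carbonic anhydrases; filled points had an adjusted p under 0.05 and black bars are list medians. Proximal markers lie left of 0 with medians from -2.54 to -1.21, and the carbonic anhydrases spread from -3.07 to 1.76.

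Of the transporters that work with these enzymes, calls were near the background of 14.1% in 3 of 4 lists. In a list of 10 genes of proximal bicarbonate recovery (median -0.42) Slc26a6, an apical anion exchanger, was called lower (-0.89, SE 0.20, adjusted p = 0.0161) and 9 did not pass. The call of Slc26a6 was lost without KO19 (adjusted p = 0.0503), without KO20 (0.057) and with library totals alone (0.126). The sodium-bicarbonate exit gene Slc4a4 had groups that did not overlap (707 and 308 CPM on average; -1.20, adjusted p = 0.0633). Slc9a3, which encodes the apical sodium-proton exchanger, was at -1.51 (SE 0.73, adjusted p = 0.224).

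Of 14 genes of acid and base transport in intercalated cells (median -0.11), Atp6v0a4, a proton pump subunit gene, fell (-0.69, SE 0.20, adjusted p = 0.0485), and 13 did not pass, beside 6.61% of all genes called lower. That call held in 6 of 18 alternative settings and was lost when C10, C11, C13, C14, KO18, KO19 or KO20 was left out (adjusted p = 0.0667 without KO18 to 0.209 without KO20). Atp6v1g3, another pump subunit gene, was at 0.93 (adjusted p = 0.170), and Atp6v1b1 -0.03 (adjusted p = 0.967). Of 10 other bicarbonate and proton carriers 8 were tested (median 0.068), and Slc26a1, a sulfate and anion exchanger of the proximal basolateral membrane, fell (-2.32, SE 0.35, adjusted p = 0.00309). Of 5 genes of ammonia formation (median -0.75), by which the proximal tubule makes new bicarbonate, Glud1 fell (-0.75, adjusted p = 0.0267) and Pck1 fell (-3.39, adjusted p = 0.00142), and the glutamine carrier gene Slc38a3 had a value of -0.38 (adjusted p = 0.556). The call of Glud1 held in 9 of 18 alternative settings and was lost when C10, C11, C13, C14, KO19 or KO20 was left out (adjusted p = 0.0543 without C11 to 0.109 without KO20).

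Among 12734 protein-coding genes with a mean of at least 1 CPM, those whose log2 CPM over the 8 libraries was most like that of a member were found by Pearson's r. For a called member this likeness includes the difference between the groups, and all points share the libraries' length lean, so it is a description. Prodh2, which breaks down hydroxyproline (r = 0.997), and F5, coagulation factor V (r = 0.992), were most like Car14, with log2 fold changes of -3.29 and -4.34. For Car12 they were Ddo, D-aspartate oxidase (r = 0.992), and Slc3a2, the heavy chain of amino acid exchangers (r = 0.991), at -1.13 and -0.87. Car13 was nearest Them6 and Ywhah (both r = 0.996), at 2.26 and 1.33.

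For Car2, which was not called, the nearest were Hoxb7, a homeobox gene of the collecting duct lineage (r = 0.996), and S100g, which encodes the calcium buffer calbindin-D9k of the distal tubule (r = 0.993), with log2 fold changes of 0.72 and 2.00 that did not pass (adjusted p = 0.161 and 0.0985). Car4 was nearest Echdc2 and Mogat1 (both r = 0.990), Car5b nearest Tbce (r = 0.970) and Zfp78 (r = 0.967), and Car8 nearest Sccpdh (r = 0.969) and Sfrp4 (r = 0.968). The nearest to Car3 were Taf11 (r = 0.937) and Rps23 (r = 0.905), a looser likeness than for any other member tested.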

How the data were processed

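The authors deposited raw counts of reads per Ensembl gene for 8 whole-kidney libraries, 1 per mouse, as the file headers and whole numbers show. Reads were processed with cutadapt 1.3, STAR 2.4.0g and HTSeq 0.6.1 on GRCm38, per the submitters' processing notes; libraries were stranded, per the labels' protocols, and the annotation release and counting strand were not given in the sources used here. Closing lines that name no gene (39.7% to 56.2% of each file) were left out. Their share was highest in KO20 (56.2%) and KO16 (52%) and lowest in C11 (39.7%), the libraries named above for their length lean. GENCODE vM21 gave symbols, positions and exonic lengths (46005 of 46517 identifiers matched).

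The fit used edgeR 4.0.16 (R 4.3.3): TMM factors, filterByExpr (minimum count 10, minimum total 15), all 8 libraries, no covariates, and Benjamini-Hochberg adjustment over 15382 genes. The SE comes from the F statistic. RPKM is scaled CPM per kilobase of exon. Log2 ratios used a prior count of 2 and an exact permutation test; the planned ratio of Car15 to Car4 was not run because Car15 was not tested. The fit was tested on simulated counts. The common biological coefficient of variation, which holds differences between mice and between libraries alike, was 0.386. A gene that did not pass is not shown to be unchanged. No pair of libraries looked like copies (chi-square per degree of freedom of at least 8.01). The labels give separate mice by name alone, and p-values measure the spread between these libraries.

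Members and lists were chosen with earlier results of these data known. Named genes were all members, all tested family genes, every list gene that passed or else the one with the smallest p, and the 2 genes most like each member; other list genes named (Slc4a4, Slc9a3, Atp6v1g3, Atp6v1b1, Slc38a3, Lep, Ckm, Myh1 and Myh4) were chosen after their values were seen. Single values of some list genes are not reported here. Alternatives were DESeq2 1.42.0, limma-voom (limma 3.58.1), other factors (RLE, upper-quartile, none but library totals), no filter, a mean of at least 1 CPM, each library left out, KO16 and KO20 or these with C11 left out, and the length slope as a covariate.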

Additional observations from a re-analysis of the deposited data

Results flagged for a closer look

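A total of 38 groups of 4 libraries were examined for a library far from the other 3, and 4 were found; chance flags about 1 in 20 groups. Car4 stood at 241 CPM in KO16, far above the other cKO libraries, and the summed RPKM of the lipid-anchored members, which is nearly all Car4, was 123 there for the same reason. Car12 stood at 384 CPM in C11, far above the other Control libraries. Car15 stood at 0.32 CPM (10 reads) in KO18, and all other libraries held 5 reads or fewer.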

How the results depend on the processing

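Car12, Car13, Car14, Car9 and Xpr1 kept their calls and directions in all 18 alternatives. The highest adjusted p-values were 0.0491 for Car12 (without KO16 and KO20), 0.0433 for Car13, 0.00701 for Car14 and 0.0138 for Car9. Without KO16, KO20 and C11 together 9175 genes and 5 members were called, and with the length slope as a covariate 5111 genes and 5 members; the cause was not tested. Leaving out a single library gave 1106 to 2697 genes, with 1436 without C10, 1106 without C13, 1200 without C14 and 1311 without KO20, and 3 to 4 members, the added one being Car4 without KO16. The sign of Car3, never called, turned by limma-voom (-0.046), without KO16 and KO20 (-0.62), without C11 as well (-0.81) and with the length covariate (-0.027). That of Car8 turned without KO16, KO20 and C11 (-0.18). Those of Car5b (0.21) and Car7 (0.037) turned with library totals alone, and that of Car5b with upper-quartile factors (0.011). The 3 ratios moved by less than 1 SD when a library was left out, from 1.03 to 1.43 for Car12 to Car14, 1.55 to 2.34 for Car4 to Car14 and 0.996 to 1.14 for Car13 to Car2; groups of 3 and 4 were not tested. Depth limits Car15, Car1, Car6 and Car10. Of 30 other called genes named from the lists, 20 kept their calls in all 18 alternatives and 0 turned sign. No paired analysis was possible: Control mice were littermates, but the litter of each mouse is not given in the sources used here.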
